A study of Danio rerio with 3 samples.

Results

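The genes described here are 7 that are grouped as neutrophil and granulocyte genes: mpx, lyz, rnasel2, npsn, mmp9, mmp13a and lect2l. They were chosen by gene symbol with earlier results of these libraries known, so their differences are described and not tested. The 7 symbols own 8 of the 32519 gene identifiers in the files, because mmp13a names a pair of neighbouring identifiers on chromosome 10. RNA came from the intestines of healthy adult zebrafish, 6 to 9 months old, which were fed 1 of 3 diets for 8 weeks. The control fish ate Tetramin, a commercial fish feed. The Cavendish and Fe'i fish ate granules that were 50% Tetramin and 50% fruit pulp of the Cavendish banana or of the Fe'i banana, so that all 3 groups ate Tetramin. The daily ration was 4% of body weight. Sampling was on day 56, with a fast of 24 hours first. Each diet has 1 library. The sources used here do not give the number or sex of the fish behind a library, nor the gut segment.

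Neutrophils are short-lived phagocytes that leave the blood at sites of infection or injury. They carry ready-made granules with a peroxidase, lysozyme, proteases and other antimicrobial proteins, and they are drawn into tissue by chemokines of the Cxcl8 family that bind the receptors Cxcr1 and Cxcr2. In fish, transcripts of the granule proteins are the usual markers of the cell type, and the receptor of granulocyte colony-stimulating factor, Csf3r, is used in the same way. Several of these genes are also active elsewhere: mmp9 and mmp13a are made by macrophages, epithelial cells and connective tissue cells at wounds, lyz also by macrophages, and ribonucleases of the RNase A family by many tissues. In RNA from a whole organ, fewer cells of a type and less RNA per cell cannot be told apart.

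Values are FPKM (fragments counted per kilobase of transcript, adjusted for library size), divided by a scaling factor for each library that sets the typical gene equal. The value after ± is the reach of the deposited 95% interval to either side, which covers counting and read assignment within 1 library and no difference between fish. Since no diet was replicated, differences have no replicate check and no p-value. A gene was called higher or lower when the log2 ratio of scaled FPKM + 1 was at least 1 in size (2-fold), the higher library reached 1 FPKM, and the scaled intervals did not overlap. Relative depth was 1 for control, 1.26 for Cavendish and 0.816 for Fe'i. A median gene at 1 FPKM or more rested on 184, 202 and 138 effective fragments, a measure of depth taken from the deposited intervals. All 12 of 12 enterocyte markers were at 1 FPKM or more in every library. The exocrine pancreas list took 5.86%, 14.0% and 4.98% of all FPKM in the 3 libraries, and the liver list 0.828%, 1.38% and 2.99%.

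The 8 identifiers did not move as 1 block. The peroxidase mpx was higher in the Fe'i library alone, the metalloproteinases mmp9 and mmp13a were higher in the Cavendish library alone, and the ribonuclease rnasel2 was higher in both banana libraries. The remaining markers lyz, npsn and lect2l stayed below the 2-fold threshold in every comparison. The plot of levels by library shows these groups side by side.

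**Figure D1:**
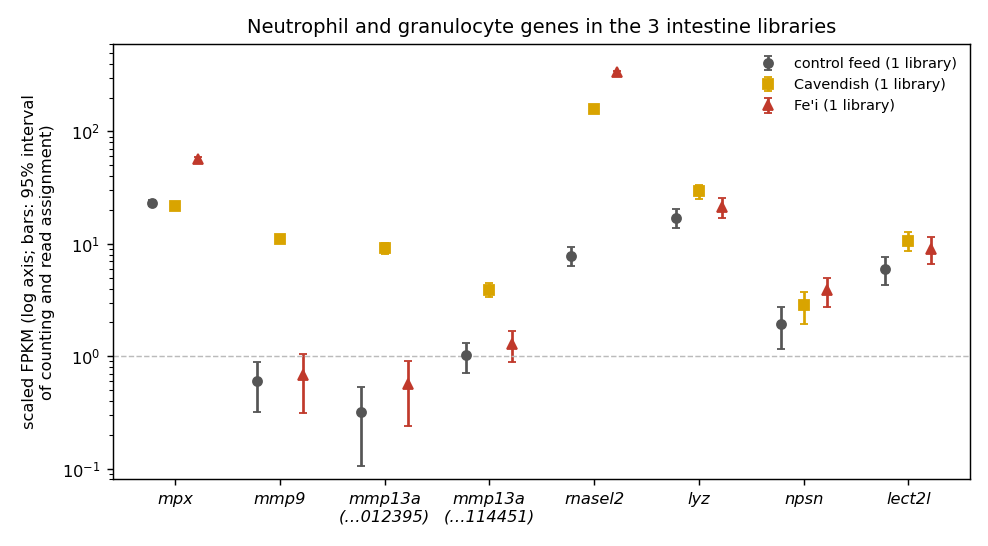
Scaled FPKM on a log axis for the 8 identifiers in the control (circles), Cavendish (squares) and Fe'i (triangles) libraries, 1 library each; bars are 95% intervals of counting and read assignment, and the dashed line marks 1 FPKM. The mpx value of the Fe'i library, 56.4, stands above the other two, mmp9 and both mmp13a identifiers stand out in the Cavendish library, and rnasel2 spans 7.84 to 336.

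The enzymes mpx, lyz and rnasel2 come first. mpx (ENSDARG00000019521, chromosome 10, 7778870 to 7785945 in GRCz11) encodes the myeloid-specific peroxidase of neutrophil granules, which turns hydrogen peroxide into hypochlorous acid. It stood at 23.3 ± 1.43 FPKM on control feed, 21.8 ± 1.33 on Cavendish and 56.4 ± 2.86 on Fe'i. The control and Cavendish intervals overlapped, and the Fe'i interval lay above both. The log2 ratio of Fe'i over control was 1.24 with a counting SE of 0.06, a 2.36-fold difference, and that of Fe'i over Cavendish was 1.33 (counting SE 0.06). Cavendish over control was -0.09 (counting SE 0.06). In the 3 libraries mpx rested on 1058, 1077 and 1553 effective fragments.

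lyz (ENSDARG00000057789, chromosome 24, 24035863 to 24038800) encodes lysozyme, which cleaves bacterial cell walls. It was at 17.1 ± 3.30 FPKM on control feed, 29.3 ± 4.13 on Cavendish and 21.3 ± 4.27 on Fe'i. The Cavendish interval lay above the control interval, while the Fe'i interval overlapped both. The log2 ratios over control were 0.74 for Cavendish (counting SE 0.16) and 0.30 for Fe'i (counting SE 0.19), neither of which reached the threshold. The locus of lyz overlaps that of abcc13, which did not exceed 0.104 FPKM in any library, and the strand used in counting is not stated.

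rnasel2 (ENSDARG00000043196, chromosome 22, 6293563 to 6294749) encodes a secreted ribonuclease of the RNase A family, to which the granule ribonucleases of human eosinophils also belong. It was at 7.84 ± 1.51 FPKM on control feed, 157 ± 6.30 on Cavendish and 336 ± 11.5 on Fe'i. No pair of intervals overlapped, and the order was control, Cavendish, Fe'i. The log2 ratio over control was 4.16 for Cavendish (counting SE 0.13) and 5.25 for Fe'i (counting SE 0.13, 38.1-fold), and that of Fe'i over Cavendish was 1.09 (counting SE 0.04). These comparisons over control share the control library, in which rnasel2 rested on 108 effective fragments, against 2493 and 3434 in the banana libraries. In the control library 55.5% of genes at 1 FPKM or more lay below rnasel2, against 95.5% on Cavendish and 97.3% on Fe'i.

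The proteases npsn, mmp9 and mmp13a follow. npsn (ENSDARG00000010423, chromosome 7, 38653481 to 38659477) encodes nephrosin, an astacin-type metalloprotease of fish neutrophils. It was at 1.94 ± 0.773 FPKM on control feed, 2.85 ± 0.903 on Cavendish and 3.86 ± 1.14 on Fe'i. The Fe'i interval lay just above the control interval (lower bound 2.718, upper bound of the control 2.712), and the Cavendish interval overlapped both. The log2 ratio of Fe'i over control was 0.73 (counting SE 0.25), below the threshold, and npsn rested on only 25.1 to 45.7 effective fragments.

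mmp9 (ENSDARG00000042816, chromosome 8, 24281512 to 24295947) encodes gelatinase B, which cleaves denatured collagen and is stored in neutrophil granules in mammals. It was at 0.601 ± 0.281 FPKM on control feed, 11.1 ± 1.01 on Cavendish and 0.675 ± 0.364 on Fe'i. The control and Fe'i intervals overlapped and the Cavendish interval lay above both. The log2 ratio over control was 2.91 in the Cavendish library (counting SE 0.14) and 0.06 in the Fe'i library (counting SE 0.20). Adding 1 FPKM before taking logs shrinks such low values: the plain ratio of Cavendish to control was 18.4, with a counting interval of 11.4 to 29.7.

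mmp13a encodes collagenase 3, which cleaves fibrillar collagen. Its identifiers, ENSDARG00000012395 (38593645 to 38602561) and ENSDARG00000114451 (38610741 to 38620514), lie 8180 bases apart on chromosome 10, whereas the RefSeq gene table (assembly GRCz12tu) holds 1 entry of that name. The upstream identifier was at 0.318 ± 0.212 FPKM on control feed, 9.14 ± 1.065 on Cavendish and 0.571 ± 0.331 on Fe'i. The downstream identifier was at 1.01 ± 0.300, 3.91 ± 0.549 and 1.28 ± 0.392. For both, the Cavendish interval lay above the other two, which overlapped each other.

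The log2 ratio of Cavendish over control was 2.94 (counting SE 0.14) for the upstream mmp13a identifier ENSDARG00000012395 and 1.29 (counting SE 0.13) for the downstream one. The plain ratios were 28.8 (counting interval 14.6 to 56.6, on 9.0 effective fragments in the control) and 3.86 (2.78 to 5.35). The share of the pair thus differed between libraries: the upstream over the downstream value was 0.313 (0.151 to 0.649) on control feed, 2.34 (1.95 to 2.80) on Cavendish and 0.447 (0.232 to 0.861) on Fe'i. Whether the pair are near-identical copies or 1 gene split by the annotation was not tested. Reads from near-identical copies can be split between identifiers, so the division between this pair is uncertain. If the pair is 1 gene, counts over identifiers include it more than once. The downstream call was lost with a pseudocount of 5, a minimum of 5 FPKM or a 3-fold threshold. Its lower call in Fe'i over Cavendish was lost under the same 3 and under scaling on pan-leukocyte genes.

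lect2l (ENSDARG00000033227, chromosome 14, 36885524 to 36887063) encodes a relative of leukocyte cell-derived chemotaxin 2, a secreted protein first known as a neutrophil attractant. It was at 5.93 ± 1.65 FPKM on control feed, 10.7 ± 2.07 on Cavendish and 9.02 ± 2.36 on Fe'i. The Cavendish interval lay above the control interval and the Fe'i interval overlapped both. The log2 ratios over control were 0.75 (counting SE 0.21) and 0.53 (counting SE 0.24). Its locus overlaps that of si:ch211-132p1.3, which was at 89.3 ± 7.27, 118 ± 8.28 and 74.3 ± 7.39 FPKM, and counting by strand is not stated, so reads of the overlap could have been credited to either gene.

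**Figure D2:**
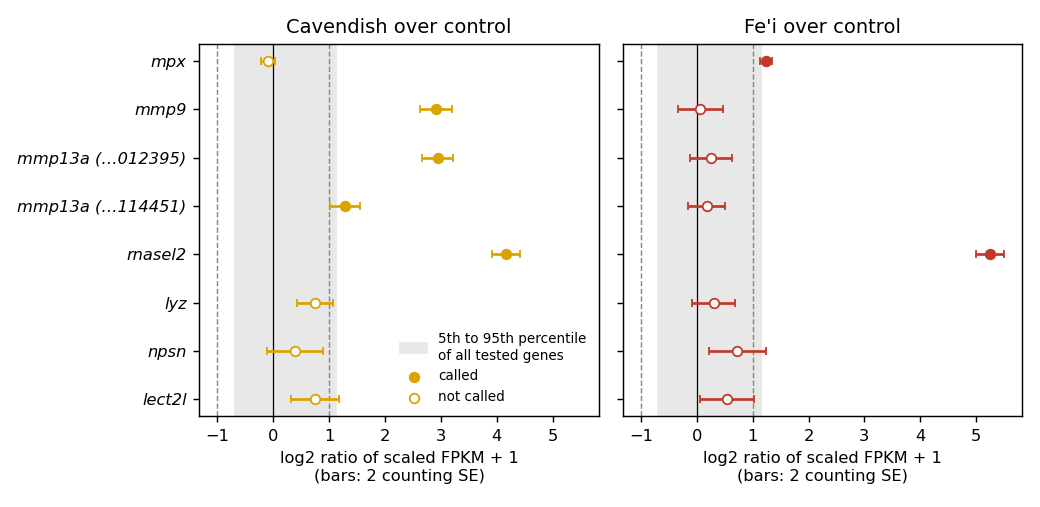
Log2 ratios of scaled FPKM + 1 over the control library for the 8 identifiers, Cavendish on the left and Fe'i on the right; bars are 2 counting SE, filled points are called, dashed lines mark 2-fold and the grey band holds the 5th to 95th percentile of all tested genes. rnasel2 lies far to the right in both panels (4.16 and 5.25), mmp9 and mmp13a in the left one only, and mpx at 1.24 in the right one only.

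Counted together, 4 of the 8 identifiers were called higher and 0 lower on Cavendish against control, where 5.9% of 13552 tested genes were called higher and 1.71% lower. On Fe'i 2 were called higher and 0 lower, where 5.2% and 1.89% of 13330 tested genes were. Called in either direction were 7.61%, 7.09% and 8.9% of tested genes in Cavendish over control, Fe'i over control and Fe'i over Cavendish. Without the 2-fold requirement, 6 of the 8 had Cavendish intervals above control, as did 21.4% of tested genes, and 3 had Fe'i intervals above control, as did 17.1%. The genes were picked with these contrasts in view, so nothing is read from the counts. In the control or Fe'i library 6 of the 8 reached 1 FPKM, since mmp9 and the upstream mmp13a passed that minimum through the Cavendish library alone. Between the banana libraries, 2 were higher in Fe'i (mpx and rnasel2) and 3 lower (mmp9 and the mmp13a pair), where 4.31% and 4.59% of 13790 genes were called. Median log2 ratios of all 8 were 1.02, 0.42 (0.63 over the 6 tested) and -0.33 for Cavendish over control, Fe'i over control and Fe'i over Cavendish, against 0.02, 0.01 and -0.01 over all tested genes.

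The balance of all calls moved with the scaling, while the calls of the 8 did not change with the deposited FPKM or either TPM scaling (transcript shares summing to a fixed total). Of all Cavendish calls against control, 77.5% were higher, compared with 66.9% on the deposited FPKM, 53.4% on TPM and 67.3% on TPM without pancreas and mitochondrial genes. TPM moved the median log2 ratio of all genes to -0.20 for Cavendish and -0.11 for Fe'i over control. Over the 13 alternatives the Fe'i over control log2 ratio of mpx ranged from 1.103 to 1.801.

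Because FPKM are per length, levels can be ordered within a library. In the control, mpx and lyz led, followed by rnasel2 and lect2l, whose intervals overlapped, then npsn, the downstream mmp13a, mmp9 and the upstream mmp13a, among which each neighbouring pair overlapped. In the Cavendish library rnasel2 was highest, then lyz and mpx, then mmp9, lect2l and the upstream mmp13a, which overlapped in neighbouring pairs. The downstream mmp13a and npsn came last and overlapped. In the Fe'i library the order was rnasel2, mpx, lyz, lect2l and npsn, each apart from the next, with the 3 metalloproteinase identifiers at the bottom and overlapping in neighbouring pairs.

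Ratios inside a library do not depend on scaling. mpx exceeded lyz 1.36-fold in the control (counting interval 1.11 to 1.67) and 2.65-fold in the Fe'i library (2.15 to 3.26), but was 0.742 of it in the Cavendish library (0.636 to 0.865). Those 3 intervals are separate, and so the pair of classical neutrophil granule markers did not keep 1 ratio. rnasel2 was 0.337 of mpx in the control (0.275 to 0.412), 7.22 times mpx on Cavendish (6.72 to 7.77) and 5.96 times mpx on Fe'i (5.61 to 6.34). mmp9 and the upstream mmp13a ran close together in the Cavendish library, at a ratio of 1.21 (1.05 to 1.41), and at 1.89 (0.839 to 4.27) on control feed and 1.18 (0.536 to 2.61) on Fe'i.

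A list of leukocyte genes, called pan-leukocyte here, gives another reference. Of all tested genes 7.61% were called in Cavendish over control, and in Fe'i over control 5.2% were called higher and 1.89% lower. Of 18 pan-leukocyte identifiers, 0 were called in the Cavendish library. Their median log2 ratio there was 0.00, or -0.26 on TPM, where the median of all tested genes was -0.20. On Fe'i 0 of 17 were called higher and 1 lower (median -0.48), and all 17 had ratios below 0. The 1 called was wasa, a Wiskott-Aldrich syndrome protein that drives actin assembly in blood cells, at 5.07 ± 0.860 FPKM on control feed and 1.86 ± 0.785 on Fe'i. laptm5, a lysosomal membrane protein of leukocytes, was at 83.5 ± 5.27, 74.0 ± 4.64 and 45.5 ± 4.49 with control, Cavendish and Fe'i feed. ptprc, the leukocyte surface phosphatase CD45, was at 26.2 on control feed, 22.8 on Cavendish and 21.8 on Fe'i.

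Set against the summed level of this pan-leukocyte list, mpx was 2.45% on control feed (counting interval 2.30 to 2.61), 2.30% on Cavendish (2.16 to 2.45) and 8.17% on Fe'i (7.74 to 8.63). lyz was 1.80% (1.48 to 2.19), 3.10% (2.69 to 3.58) and 3.09% (2.52 to 3.78). rnasel2 went from 0.826% on control feed to 16.6% on Cavendish and 48.7% on Fe'i. The list summed to 949, 945 and 690 FPKM with control, Cavendish and Fe'i feed. Of that, cotl1 alone supplied 356, 334 and 279 FPKM, so these percentages depend in large part on cotl1. With libraries scaled on the pan-leukocyte genes, an alternative chosen after seeing the data, npsn and lect2l in the Fe'i library also passed the threshold, at log2 ratios of 1.16 and 1.04, and mpx stood at 1.80. That scaling moves the median of all genes to 0.50 in the same comparison, and 93.5% of all calls are then higher. The Fe'i medians of the pan-leukocyte, other neutrophil, transcription factor, oxidase, attractant, macrophage and lymphocyte lists given here as below 0 then turn to 0.06, 0.30, 0.29, 0.39, 0.35, 0.17 and 0.02, each still below that 0.50. The pan-leukocyte value, 0.06, is near 0 by construction, because that list sets the scaling.

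The receptors that mark neutrophils were near the limit of detection. csf3r was at 0.0626 ± 0.0723 FPKM on control feed, 0.144 ± 0.102 on Cavendish and 0.253 ± 0.169 on Fe'i, and the Cxcl8 receptors cxcr1 and cxcr2 did not exceed 0.162 and 0.446 FPKM. scpp8, a neutrophil marker in zebrafish, was listed at 0 in the control and stood at 1.29 ± 0.466 on Cavendish and 0.271 ± 0.351 on Fe'i. Of 19 matched identifiers in a list of other neutrophil markers, 6 stayed under 1 FPKM in all libraries.

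In that list 4 of 13 measured identifiers were called higher and 0 lower on Cavendish (median 0.33), and 1 of 11 higher and 1 lower on Fe'i (median -0.24). Of all tested genes 5.9% were called higher and 1.71% lower on Cavendish, and 5.2% and 1.89% on Fe'i. Against control, the Cavendish calls of this list were cpa5, timp2b, s1pr4 and scpp8. Of these, s1pr4 and scpp8 passed the minimum of 1 FPKM through the Cavendish library alone, so their high ratios follow in part from that selection. timp2b is also counted below among the metalloproteinases and their inhibitors. cpa5, a carboxypeptidase used as a mast cell marker in zebrafish, also belongs to the exocrine pancreas list and was at 981 ± 13.6, 3069 ± 22.4 and 1272 ± 18.1 FPKM with control, Cavendish and Fe'i feed. s1pr4, a sphingosine-1-phosphate receptor of leukocytes, was at 0.0335 ± 0.0669, 1.21 ± 0.377 and 0.361 ± 0.255. Without the pancreas gene, the list summed to 118, 150 and 96.3 FPKM in the 3 libraries. Of these sums srgn alone, also a mast cell and eosinophil candidate, supplied 46.4, 74.4 and 38.6 FPKM.

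The Fe'i calls of the same list went in opposite directions. pnp5a, a purine nucleoside phosphorylase, was at 6.00 ± 0.661 FPKM on control feed, 7.27 ± 0.673 on Cavendish and 16.9 ± 1.29 on Fe'i, so that, as with mpx, only the Fe'i interval stood apart by over 2-fold. illr4, a lectin-like receptor of myeloid cells, was at 17.5 ± 2.34, 10.1 ± 1.64 and 4.98 ± 1.41. srgn, the proteoglycan core of leukocyte granules, was at 46.4 ± 3.48, 74.4 ± 4.60 and 38.6 ± 3.47, and was not called in either comparison over control.

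Transcription factors of granulocyte formation were not called in any comparison (0 of 9 measured identifiers). Their medians over control were 0.33 on Cavendish and -0.13 on Fe'i. Of all tested genes only 7.61% were called in Cavendish over control, 7.09% in Fe'i over control and 8.9% in Fe'i over Cavendish. Nothing is therefore read from a count of 0 here. cebpa, which commits progenitors to the granulocyte lineage, was at 23.3 ± 1.35 FPKM on control feed, 37.7 ± 1.58 on Cavendish and 24.9 ± 1.62 on Fe'i. spi1b, the myeloid factor PU.1, was at 14.7 ± 1.72, 13.6 ± 1.497 and 7.40 ± 1.33. Stress and acute phase signals also act through cebpb and cebpd, which stood at 77.2, 126 and 81.3 FPKM and at 103, 98.3 and 71.9 FPKM in the same order.

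The NADPH oxidase of phagocytes makes the superoxide from which the hydrogen peroxide used by Mpx arises. Its 6 genes were all measured and 0 were called in any comparison. Medians over control were 0.18 on Cavendish and -0.18 on Fe'i, and the first was -0.05 on TPM. Of all tested genes only 7.61% were called in Cavendish over control, 7.09% in Fe'i over control and 8.9% in Fe'i over Cavendish. Nothing is therefore read from the oxidase count. The membrane subunit cybb was at 5.43 ± 0.722 FPKM on control feed, 7.64 ± 0.966 on Cavendish and 4.21 ± 0.787 on Fe'i. The cytosolic subunit ncf1 was at 62.6 ± 2.60, 56.6 ± 2.30 and 55.6 ± 2.85. In the Fe'i library, then, the value of mpx was above the control while 5 of 6 oxidase genes had ratios below 0.

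Among signals that attract neutrophils or prolong their life, 4 chemokines were called higher on Cavendish. Of all tested genes 5.9% were called higher there and 5.2% on Fe'i. Of 17 measured identifiers 4 were called higher and 0 lower on Cavendish (median 0.35), and 1 of 14 higher and 0 lower on Fe'i (median -0.09). cxcl12b, csf3b and il6, none of them called, passed the minimum of 1 FPKM through the Cavendish library alone. The Cavendish median follows in part from that selection. cxcl8a, the main neutrophil attractant, was at 6.54 ± 1.73 FPKM on control feed, 21.8 ± 2.96 on Cavendish and 8.68 ± 2.32 on Fe'i. cxcl18b, another chemokine of inflamed tissue, was at 5.41 ± 1.15, 40.7 ± 2.93 and 12.3 ± 2.00, and was the 1 gene of this list called in both. Its Fe'i over control log2 ratio, 1.06, fell just below the threshold on the deposited FPKM and on TPM, so that call depends on the scaling.

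The chemokine cxcl8b.1 was at 38.5 ± 4.17 FPKM on control feed, 231 ± 9.50 on Cavendish and 32.8 ± 4.51 on Fe'i, high in the same library as mmp9 and mmp13a. The fourth Cavendish call was cxcl12a, which holds leukocytes in place through Cxcr4, at 5.90 ± 0.660, 19.5 ± 1.11 and 11.4 ± 1.06. il1b, the inflammatory cytokine, was at 5.43 ± 0.909, 11.5 ± 1.28 and 4.74 ± 0.977, just under the threshold in Cavendish over control (log2 ratio 0.96). Chemokines of the list that were not called over control were cxcl8b.3, at 3.22 ± 0.591, 3.22 ± 0.548 and 2.92 ± 0.660, cxcl18a.1, at 27.4 ± 3.23, 52.8 ± 4.19 and 39.4 ± 4.48, and cxcl12b, at 0.313 ± 0.157, 1.05 ± 0.270 and 0.317 ± 0.183. The granulocyte growth factors csf3a and csf3b did not exceed 0.277 and 1.23 FPKM.

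**Figure D3:**
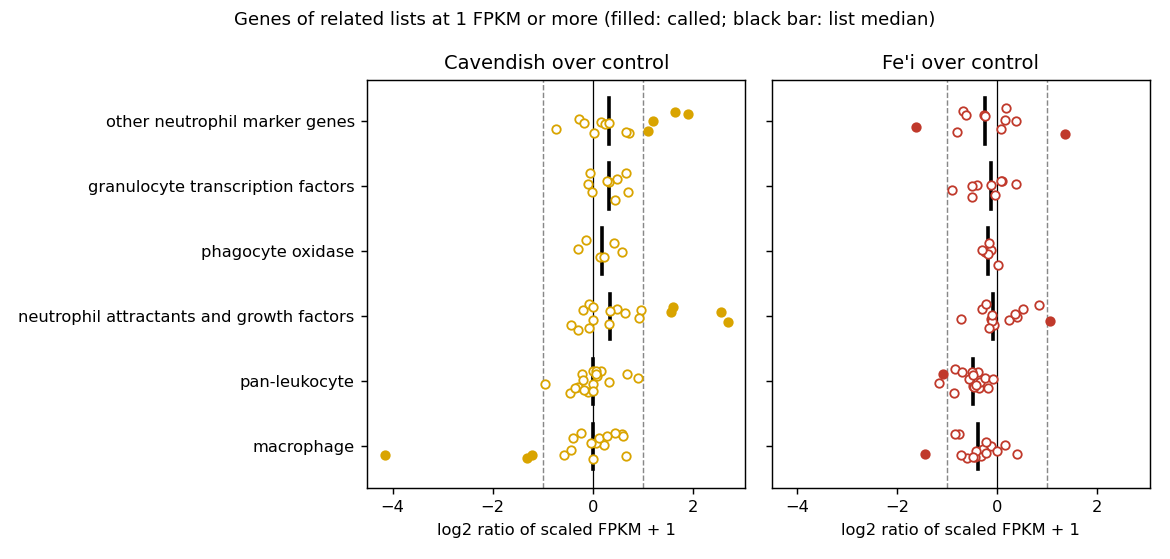
Log2 ratios of scaled FPKM + 1 over the control library for identifiers at 1 FPKM or more in 6 lists, Cavendish on the left and Fe'i on the right; filled points are called, dashed lines mark 2-fold and black bars are list medians. The attractant list holds 4 filled points above 1 on the left and 1 on the right, and pan-leukocyte points on the right lie below 0 with a median of -0.48.

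Relatives of rnasel2, mpx and lyz come next. In the RNase A family, rnasel3 was at 29.7 ± 3.09 FPKM on control feed, 43.8 ± 3.51 on Cavendish and 181 ± 9.71 on Fe'i, called higher in Fe'i over control (log2 ratio 2.57) but not in Cavendish over control (0.54). rnasel4 stayed under 1 FPKM in all libraries. The eosinophil peroxidase gene epx, another relative of mpx, also stayed under 1 FPKM. lygl1, a goose-type lysozyme, was at 115 ± 6.66, 127 ± 6.54 and 76.9 ± 6.40 FPKM with control, Cavendish and Fe'i feed, and was not called against control.

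Among astacin proteases other than npsn, 2 of 5 were called higher in each banana library over control. Of all tested genes 5.9% were on Cavendish and 5.2% on Fe'i. c6ast3 was at 877 ± 39.8 FPKM on control feed, 2317 ± 98.7 on Cavendish and 737 ± 35.1 on Fe'i. bmp1a, which trims procollagen, was at 2.49 ± 0.399, 7.16 ± 0.668 and 6.19 ± 0.749, called in both. The Fe'i call of bmp1a (log2 ratio 1.04) was lost on the deposited FPKM and on TPM. mep1a.2, a subunit of the brush border protease meprin, was at 35.2 ± 2.35, 49.0 ± 2.86 and 88.3 ± 4.97, called in Fe'i. npsn, at most 3.86 FPKM, was below c6ast3 and mep1a.2 with every feed, while its interval overlapped that of bmp1a on control feed.

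In the family of matrix metalloproteinases and their tissue inhibitors, leaving out mmp9 and mmp13a, 4 of 7 measured identifiers were called higher and 0 lower on Cavendish (median 1.14), and 0 of 8 in the Fe'i library (median 0.45). The share of all tested genes called higher was 5.9% on Cavendish and 5.2% on Fe'i. timp4.2, an inhibitor, was at 1.12 ± 0.582 FPKM on control feed, 11.3 ± 1.73 on Cavendish and 1.91 ± 0.876 on Fe'i. timp2b, also an inhibitor, was at 1.08 ± 0.301, 6.81 ± 0.769 and 1.302 ± 0.391. The membrane-bound collagenases mmp14a and mmp14b were at 0.763 ± 0.219, 2.89 ± 0.400 and 1.38 ± 0.348, and at 1.502 ± 0.269, 4.94 ± 0.453 and 2.75 ± 0.425. mmp2, the other gelatinase, was at 5.24 ± 0.622, 10.4 ± 0.813 and 5.85 ± 0.771, below the threshold.

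**Figure D4:**
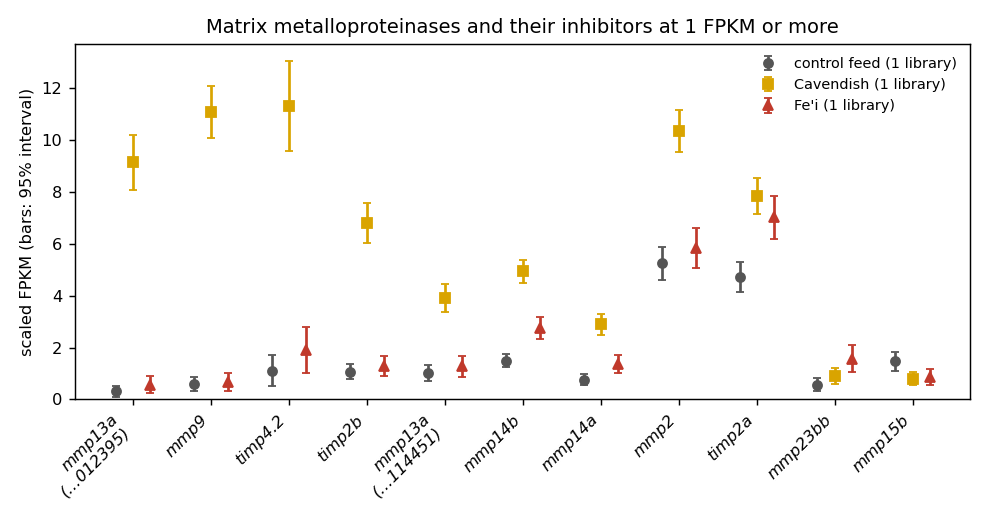
Scaled FPKM of matrix metalloproteinases and their inhibitors that reached 1 FPKM in any library, ordered by the Cavendish over control ratio; symbols are the control (circles), Cavendish (squares) and Fe'i (triangles) libraries, 1 each, and bars are 95% intervals. The Cavendish value is highest for mmp9 (11.1), mmp13a, timp4.2 (11.3), timp2b, mmp14a, mmp14b and mmp2. It is also highest for timp2a (7.82 against 7.02 on Fe'i), whose Cavendish and Fe'i intervals overlap.

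Transcripts of other cells moved in the same libraries. Beside the counts below, 5.9% of all tested genes were called higher and 1.71% lower on Cavendish, and 5.2% and 1.89% on Fe'i. In the Cavendish library, 9 of 16 smooth muscle and fibroblast genes were called higher and 0 lower (median 1.201; summed level 412 FPKM on control feed, 1318 on Cavendish and 603 on Fe'i), as were 15 of 17 exocrine pancreas genes. Of the 16 smooth muscle and fibroblast genes, 13 reached 1 FPKM in the control or Fe'i library. The others passed the minimum through the Cavendish library alone and were not called, so that median follows in part from selection. Of 17 epithelial wound and barrier genes other than mmp9 and mmp13a, 9 were called higher (median 1.07), among them duox, an epithelial oxidase, at 0.922 ± 0.269, 24.2 ± 1.49 and 0.870 ± 0.305. Only 12 of the 17 reached 1 FPKM in the control or Fe'i library, and 2 of these were called higher on Fe'i (median 0.12). The rest, which include duox, duox2 and other called genes, passed the minimum through the Cavendish library alone. Their high Cavendish ratios follow in part from that selection. Liver and erythrocyte genes mostly had ratios above 0 in both banana libraries, with 1 liver gene below 0 in each. Of 17 liver genes 4 were called higher on Cavendish (median 0.68) and 16 on Fe'i (median 1.90), and of the erythrocyte genes 6 of 8 on Cavendish (median 1.19) and 6 of 9 on Fe'i (median 1.65), with 0 lower. Mitochondrially encoded genes took 12.0%, 10.9% and 17.4% of all FPKM with control, Cavendish and Fe'i feed. Of 12 enterocyte genes 1 was called higher and 2 lower on Cavendish (median -0.36), and 0 higher and 2 lower on Fe'i (median -0.32). The part of these cells, and of the mitochondrial share, in the levels of mmp9, mmp13a, mpx and rnasel2 was not tested.

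No gene of the macrophage and lymphocyte lists was called higher over control. Only 5.9% of all tested genes were on Cavendish and 5.2% on Fe'i, so nothing is read from this. Called lower were 1.71% and 1.89% of all tested genes. Of 17 measured macrophage genes 0 were called higher and 3 lower on Cavendish (median 0.00, or -0.24 on TPM), and of 16 0 higher and 1 lower on Fe'i (median -0.38). The 3 lower in Cavendish were mfap4, at 324 ± 16.8, 17.2 ± 2.40 and 179 ± 11.4 FPKM with control, Cavendish and Fe'i feed, and the granulins grn1 and grn2. mpeg1.1, the perforin of macrophages, was at 37.7 FPKM on control feed, 41.3 on Cavendish and 27.4 on Fe'i. Of 9 lymphocyte genes 0 were called in either library (medians 0.16 and -0.49, the first of which is -0.10 on TPM). Of 7 mast cell and eosinophil candidates 4 were at 1 FPKM or more with every feed. Among these, cpa5 was called higher on Cavendish (list median 0.34) and 0 were called on Fe'i (median -0.15). fcer1g, a signalling chain of Fc receptors, was at 5.25 ± 2.16, 5.27 ± 2.03 and 1.78 ± 1.45. The other 3, kita, kitb and epx, were under 1 FPKM throughout, with kitb listed at 0 in every library.

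Of 30 distinct neighbours by position that are not members, 13 were tested in Cavendish over control, with 1 called higher and 1 lower. Of all tested genes 5.9% were called higher and 1.71% lower there. In Fe'i over control 14 were tested, with 3 higher and 0 lower, against 5.2% and 1.89% of all tested genes. Nothing is read from counts this small. On the side before rnasel2, 6075 bases away, si:ch211-274k16.9 was at 0.579 ± 0.289 FPKM on control feed, 2.72 ± 0.586 on Cavendish and 4.68 ± 0.955 on Fe'i, called higher in both. The gene following lect2l, named LECT2 (1 of many) in the files and 9578 bases away, was at 66.2 ± 6.83, 14.3 ± 2.88 and 99.3 ± 9.80, called lower in Cavendish over control (log2 ratio -2.14) where lect2l itself was at 0.75. BX957297.2, which lies 2176 bases before npsn, and acat1, which lies 43403 bases after the downstream mmp13a, were called higher in Fe'i over control. The nearest neighbours of mpx, si:ch73-340n8.4 and sftpba, were not called. These neighbours were named after their values were seen.

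Genes with the most similar pattern were taken by distance between the pair of log2 ratios over control, over 3 libraries and among 7999 genes that reached 5 FPKM in any library. Those given here are the nearest that have a gene name rather than a clone name, and for mmp9 a gene without one was nearer, at a distance of 0.113 against 0.160 for jac1. Nearest to mpx were pgghg, at 2.97, 2.68 and 8.23 FPKM with control, Cavendish and Fe'i feed, prss16, at 16.2, 15.1 and 38.7, and slc35f6, at 32.0, 28.9 and 75.7. As many as 28 genes lay within 0.25 log2 units of mpx, against 6 of mmp9 and 1 of rnasel2. For mmp9 the named genes were jac1, listed at 0 in the control and at 5.83 ± 1.09 in the Cavendish library, the upstream mmp13a and plek2, at 0.130, 8.84 and 0.125. For rnasel2 they were gstp2, a glutathione transferase, at 0.330 ± 0.330, 24.8 ± 2.69 and 50.8 ± 4.79, then blnk, whose banana library intervals reach 0, and thrsp at a distance of 1.00.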

How the data were processed

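Poly(A) RNA of zebrafish intestine was sequenced in paired reads of 150 bases. The submitters' processing notes name FastQC 0.11.5, TopHat2 2.1.0 and the build GRCz11. Per the file headers, the authors deposited FPKM from Cufflinks, each with its 95% interval and a status; the Cufflinks version and options, and any use of strand, are not given in the sources used. Of 32661 rows in each file, 259 belonged to 117 repeated identifiers and were summed, and 9 with the status for too many fragments were left out.

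With Python 3.11.15, libraries were scaled by median ratios to a geometric mean reference, using genes that reached 1 FPKM in each of the 3 (factors 1.06, 0.969 and 0.965 for control, Cavendish and Fe'i). An interval's reach to either side was taken as 2 SD, effective fragments as the squared ratio of FPKM to SD, and relative depth as the median change in effective fragments per FPKM. PCR copies are not independent molecules, so intervals cover counting error only. Calls and counting SE follow the report. The rule was also run on simulated libraries with counting error only, which hold no difference between fish or in cell make-up. Starts were counted from 1.

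The members and the 18 other lists (255 of all 296 symbols matched) were chosen with earlier results of these data known. Named genes are the members, up to 4 per list by size of ratio at 5 FPKM or more, any gene of the lists of neutrophil genes, phagocyte oxidase, attractants and family relatives, and 3 pattern neighbours for mpx, mmp9 and rnasel2. Outside this rule the text names ptprc, cotl1, mpeg1.1, kita, kitb and the genomic neighbours, chosen after their values were seen. Promoter and protein comparisons that had been planned were not run, and no sequence is shown. The 7 members, as 8 identifiers, were matched by symbol; 7 of the 8 are in the gene name table.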

Additional observations from a re-analysis of the deposited data

How the results depend on the processing

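No paired analysis was possible because each diet has 1 library, and for the same reason no library could be left out. Member log2 ratios gave 312 values under 13 alternatives, 2 of them chosen after seeing the data. Of these values, 271 moved by less than their counting interval, 41 moved by more and 0 changed sign on a called value. Changing the FPKM minimum or the fold threshold, or ignoring the intervals, alters calls only and cannot move a log2 ratio. Values under those settings are part of the 271 by construction. So, in effect, are those that take the highest row of a repeated identifier, since each member has 1 row and only the scaling factors differ slightly. The counts of the 8 identifiers called higher in Fe'i over control were 2 in the report, 1 with a 3-fold threshold and 4 when scaled on pan-leukocyte genes. In Fe'i over Cavendish the 2 called higher became 0 with a 3-fold threshold, since mpx and rnasel2 differ there by 2.52-fold and 2.13-fold. The calls of mmp9, the upstream mmp13a and rnasel2 over control in the Cavendish library held under all 13 alternatives, as did rnasel2 in Fe'i. Among these, the 1.5-fold threshold, no minimum FPKM and ignoring the intervals only loosen the rule and could not remove a call. Nor could the pseudocounts of 0.1 and 0.01, which enlarge log2 ratios and leave the other conditions as they were. Taking the highest row of a repeated identifier was no real check either, since each member has 1 row. The Cavendish log2 ratio of mmp9 ranged from 1.52 (pseudocount of 5) to 4.18 (pseudocount of 0.01), that of the upstream mmp13a from 1.41 to 4.80, and the lower of each pair follows from the larger constant added to low values. lyz and lect2l in Cavendish and npsn in Fe'i were called higher at a 1.5-fold threshold.

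Background counts of 799 higher and 232 lower in Cavendish over control became 1722 and 745 at 1.5-fold, 233 and 71 at 3-fold, 280 and 95 with a pseudocount of 5, 517 and 452 on TPM, 1280 higher with a pseudocount of 0.1 (1320 higher and 363 lower with 0.01), 491 higher with a minimum of 5 FPKM, and 368 lower on TPM without pancreas and mitochondrial genes. In Fe'i over control 693 and 252 became 1333 and 718, 320 and 77, and 333 and 79 under the first 3 of these, 395 and 417 lower with a pseudocount of 0.1 and 0.01, 160 lower with a minimum of 5 FPKM, and 1651 and 114 on pan-leukocyte scaling. In Fe'i over Cavendish 594 and 633 became 1260 and 1413, 239 and 202, 277 and 225, 1014 and 1056 lower, 393 lower, and 1594 and 290 in the same order; on pan-leukocyte scaling 84.6% of these calls were higher against 48.4% in the report. Depth limits csf3r, cxcr1, cxcr2 and mmp9 outside the Cavendish library, where levels rest on few fragments.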
